A study of Danio rerio with 12 samples.

Results

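The genes described here are the 6 genes of the zebrafish inflammasome and its pore-forming step that were chosen by name for this account: pycard (the adaptor ASC), the inflammatory caspases caspa, caspb and caspbl, and the gasdermins gsdmea and gsdmeb. They are 6 of the 37055 genes of the deposited expression table. The table lists 4 of them under these names, while gsdmea and gsdmeb stand under their older names dfna5a and dfna5b and were identified by their NCBI gene numbers. RNA came from the eyeballs of zebrafish at 3 months, with both eyes of one fish in each sample, and the groups were 6 wild-type (WT) fish and 6 fish homozygous for an lrpap1 frameshift mutation made by CRISPR/Cas9 in exon 1. The mutants belong to a single stable line derived from one purchased founder line, and the labels name no treatment for either genotype. Polyadenylated RNA was sequenced, and the comparison asks how the mRNA of these genes differed between mutant and WT eyes.

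An inflammasome is a protein platform that forms in a cell after it senses microbial products or damage. Sensor proteins of the NLR family gather the adaptor Pycard into one large speck, and the speck brings inflammatory caspases together so that they become active. Active caspases mature interleukin-1 family cytokines and cut gasdermins, whose released N-terminal part makes pores in the plasma membrane, a form of lytic cell death called pyroptosis. Zebrafish Caspa and Caspb differ from mammalian caspase-1 in carrying a pyrin domain in place of a CARD domain, and zebrafish Caspb binds bacterial lipopolysaccharide. The zebrafish gasdermins Gsdmea and Gsdmeb are relatives of mammalian gasdermin E, which caspase-3 can cut, so these genes link inflammatory and apoptotic caspases. In the eye, inflammasomes have been studied mainly in the retinal pigment epithelium, in microglia and in the cornea.

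Total counts were between 7988538 and 9829112 per sample. The eye genes rho, gnat1 and rpe65a were abundant in every sample, as the tissue label would have it. WT sample 3 stood apart, with crystallins at 0.071% of its counts against 5.339% to 9.78% in the other samples. The targeted gene lrpap1 was at 22.0, 28.4 and 31.3 CPM (lowest, median and highest) in WT and at 16.4, 18.9 and 22.3 CPM in mutants, which differed by -0.52 on the log2 scale (standard error, SE, 0.11, adjusted p = 0.0108, edgeR). CPM stands for counts per 1000000, here of each sample's total after edgeR's TMM scaling, and p values were adjusted over the 18984 genes that passed edgeR's filter on low counts. Separate fish were sampled, but whether the sequenced fish of both genotypes were raised together is not given in the sources used here, so genotype and rearing cannot be told apart.

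The adaptor pycard and the caspases caspb and caspbl were higher in mutant than in WT eyes, by 2.20-fold, 2.31-fold and 5.12-fold. The third caspase, caspa, and both gasdermins did not pass the test. All 6 genes passed the filter on low counts. Calls required both a Benjamini-Hochberg p under 0.05 and a log2 difference beyond 1 in size, and by this rule 3 of the 6 were called higher and 0 lower, where 3.68% of all genes tested were called higher and 0.874% lower by edgeR. Of the 3 called genes, caspb and caspbl lie near each other on chromosome 1. There 9 of the 24 tested genes that start within 400000 bases of caspbl were called higher. DESeq2 and limma also called 3 higher and 0 lower, and 0 of the 6 were lower at an unadjusted p under 0.05 in edgeR. In 2 of the 6, pycard and caspbl, every mutant sample was above every WT sample, as in 3.69% of all genes tested. The median log2 fold change was 1.03 over the 6 genes and -0.02 over all genes tested. These are whole-eyeball samples, in which a change in the number of cells of a type and a change in RNA per cell cannot be told apart.

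**Figure D1:**
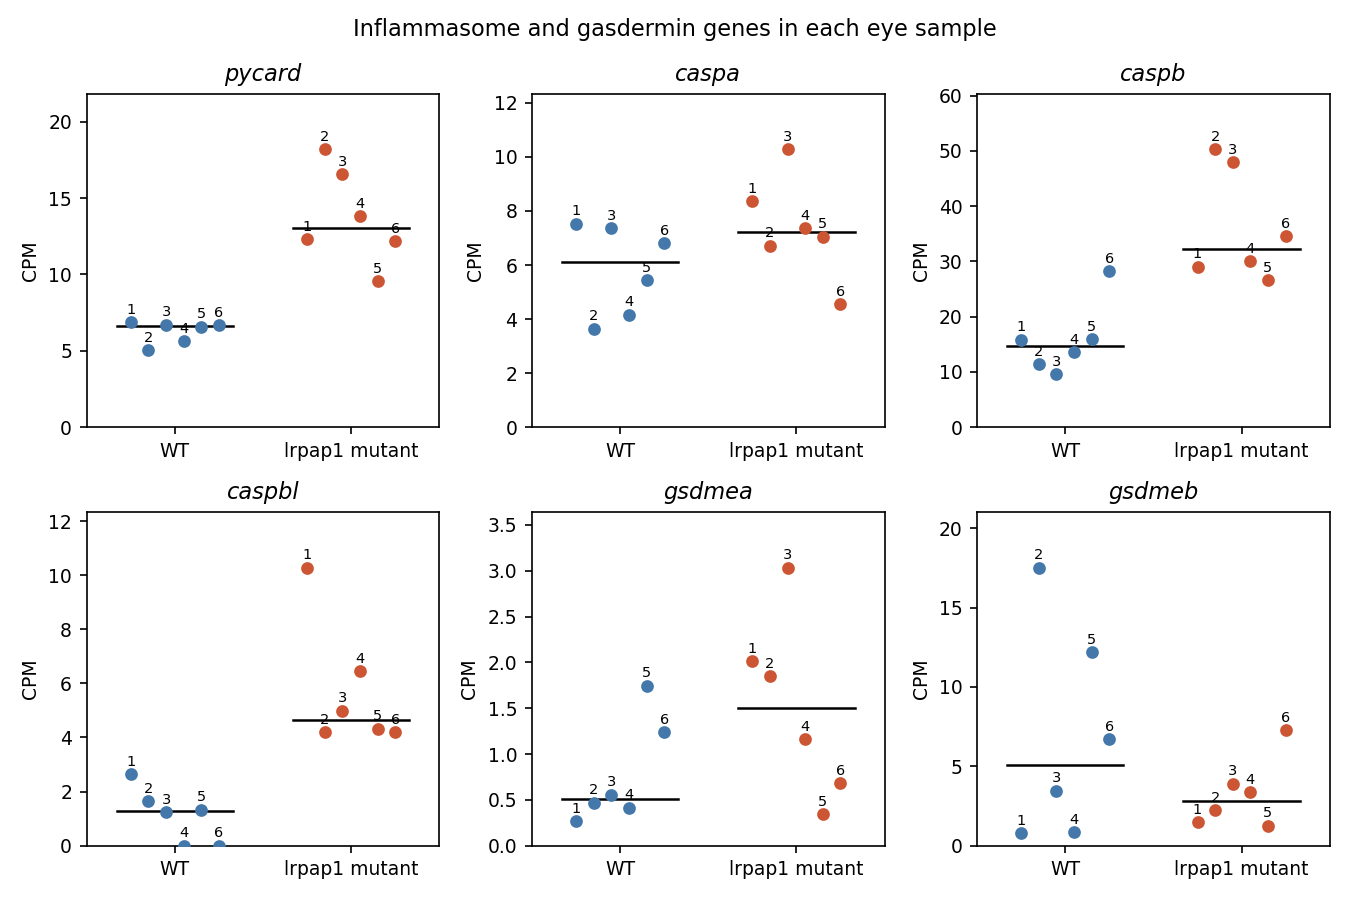
CPM of each gene in the 6 WT and 6 lrpap1 mutant eye samples. Points are samples with their replicate number, lines are medians, and each panel has its own axis from 0. The genotypes do not overlap for pycard and caspbl, only WT sample 6 reaches the mutant range for caspb, and the ranges overlap for caspa, gsdmea and gsdmeb.

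pycard codes for the adaptor on which the platform is built. Its place in GRCz11 is chromosome 16, reverse strand, 41984032 to 41990414. In WT eyes the lowest, median and highest values were 5.06, 6.63 and 6.87 CPM, from 43 to 65 counts. In mutant eyes they were 9.56, 13.1 and 18.2 CPM, from 84 to 187 counts. The WT samples lay close together, with a coefficient of variation of 11.8%, while the mutants spread more widely at 23.0%, with mutant samples 2 and 3 the highest. The genotypes did not overlap. Mutant eyes exceeded WT eyes by a log2 fold of 1.14 (SE 0.16, 95% confidence interval 0.79 to 1.49, adjusted p = 0.000825, edgeR). An uncharacterized gene on the opposite strand, si:ch211-225p5.8, overlaps the end of pycard, and reads of the overlap cannot be told apart here because the use of strand in counting is not given in the sources used here. That gene did not pass the test, at -0.55 on the log2 scale (SE 0.31, adjusted p = 0.273, edgeR).

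caspa, the caspase that zebrafish Pycard specks recruit, lies 3142 bases from pycard on the same strand, from 41993556 to 42004481. Its lowest, median and highest values were 3.65, 6.12 and 7.53 CPM in WT and 4.55, 7.21 and 10.3 CPM in mutant eyes. The ranges overlapped widely, with 4 WT samples above the lowest mutant and 2 mutants above the highest WT sample. The fitted log2 difference was 0.34 (SE 0.23, 95% confidence interval -0.14 to 0.83, adjusted p = 0.351, edgeR), so an increase of up to 1.78-fold lies within the interval. The balance of these neighbouring genes was compared directly, as 1 of 3 ratios that were chosen after the values had been seen. The log2 ratio of pycard to caspa, per length and with 0.5 counts added, had lowest, median and highest values of 0.56, 0.82 and 1.16 in WT and 1.13, 1.49 and 2.13 in mutants. Its SD was 0.28 (n = 6) in WT and 0.43 (n = 6) in mutants, and the means differed by 0.76 (exact permutation test, two-sided, p = 0.00433, adjusted p = 0.013 over 3 ratios). In 5 of 6 mutants this ratio was above that of every WT sample. The next gene after caspa, etv2, did not pass the test.

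caspb lies on chromosome 1 from 58050910 to 58064721 on the reverse strand. It codes for the lipopolysaccharide-binding caspase. In WT eyes its lowest, median and highest values were 9.60, 14.7 and 28.2 CPM, from 86 to 274 counts. In mutant eyes they were 26.6, 32.3 and 50.3 CPM, from 233 to 517 counts. WT sample 6, at 28.2 CPM, was the only WT sample above the lowest mutant, and mutant samples 2 and 3 were again the highest. The log2 fold change was fitted at 1.21 (SE 0.24, 95% confidence interval 0.68 to 1.73, adjusted p = 0.00702, edgeR). On one side of caspb, trim35-1, a tripartite motif gene, was also called higher (log2 fold change 1.06, SE 0.31, adjusted p = 0.0424, edgeR). On the other side si:ch211-114l13.4 was at 0.77 (SE 0.33, adjusted p = 0.142, edgeR).

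caspbl, a gene named for its likeness to caspb, lies farther along chromosome 1 from 58105742 to 58115334 on the reverse strand. It was listed at 0 counts in WT samples 4 and 6, where 3 counts would have been worth 0.312 and 0.309 CPM. The lowest, median and highest values were 0, 1.28 and 2.64 CPM in WT and 4.19, 4.65 and 10.3 CPM in mutant eyes. The genotypes did not overlap, since the other 4 WT samples were between 1.23 and 2.64 CPM. Mutant sample 1 was the highest with 97 counts, where the other mutants had 37 to 50. Its fitted log2 change was 2.36 (SE 0.60, 95% confidence interval 1.06 to 3.65, adjusted p = 0.0233, edgeR). Without mutant sample 1 it was 2.12 and the call was lost (adjusted p = 0.0635, edgeR), and limma put the change at 3.96 (adjusted p = 0.00958).

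The zeros of caspbl were part of a longer stretch, which was examined after the counts had been seen. Among the 60 genes that start within 400000 bases of caspbl, 24 passed the filter. In 12 of these, next to each other in the order of tested genes from 58079043 to 58452303, WT samples 4 and 6 had at most 4 counts each, while no mutant sample was that low. The other WT samples were also at or under 4 counts in some of these genes, WT samples 1 and 3 in 6 of the 12 each, WT sample 2 in 4 and WT sample 5 in 0. Summed over these 12 genes, WT sample 4 had 3 counts and WT sample 6 had 7, the other WT samples had 103 to 316, and the mutants had 265 to 931 with mutant sample 1 the highest. Of the 12 genes, 5 were called higher in mutants, caspbl among them, where 3.68% of all genes tested were called higher. The 12 were picked by their low counts in WT samples 4 and 6, which favours such calls. These calls therefore add no separate support. The gene that follows the stretch, si:ch73-236c18.5, went the other way in WT samples 4 and 6 and in mutant samples 1 and 4. It had 199 and 179 counts in WT samples 4 and 6 but 3 and 1 counts in mutant samples 1 and 4, the 2 mutants with the highest CPM of caspbl, against 56 to 109 in the other 8 samples. caspb lies before the stretch, and it had 131 and 274 counts in WT samples 4 and 6. In the whole window 9 of the 24 tested genes, caspb and caspbl among them, were called higher, and 0 were called lower. What sets this stretch apart in the fish was not tested. An uncharacterized gene on the opposite strand, si:ch211-114l13.13, spans the whole of caspbl with 0 to 25 counts in WT and 15 to 61 in mutants, and reads shared between these genes cannot be told apart.

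**Figure D2:**
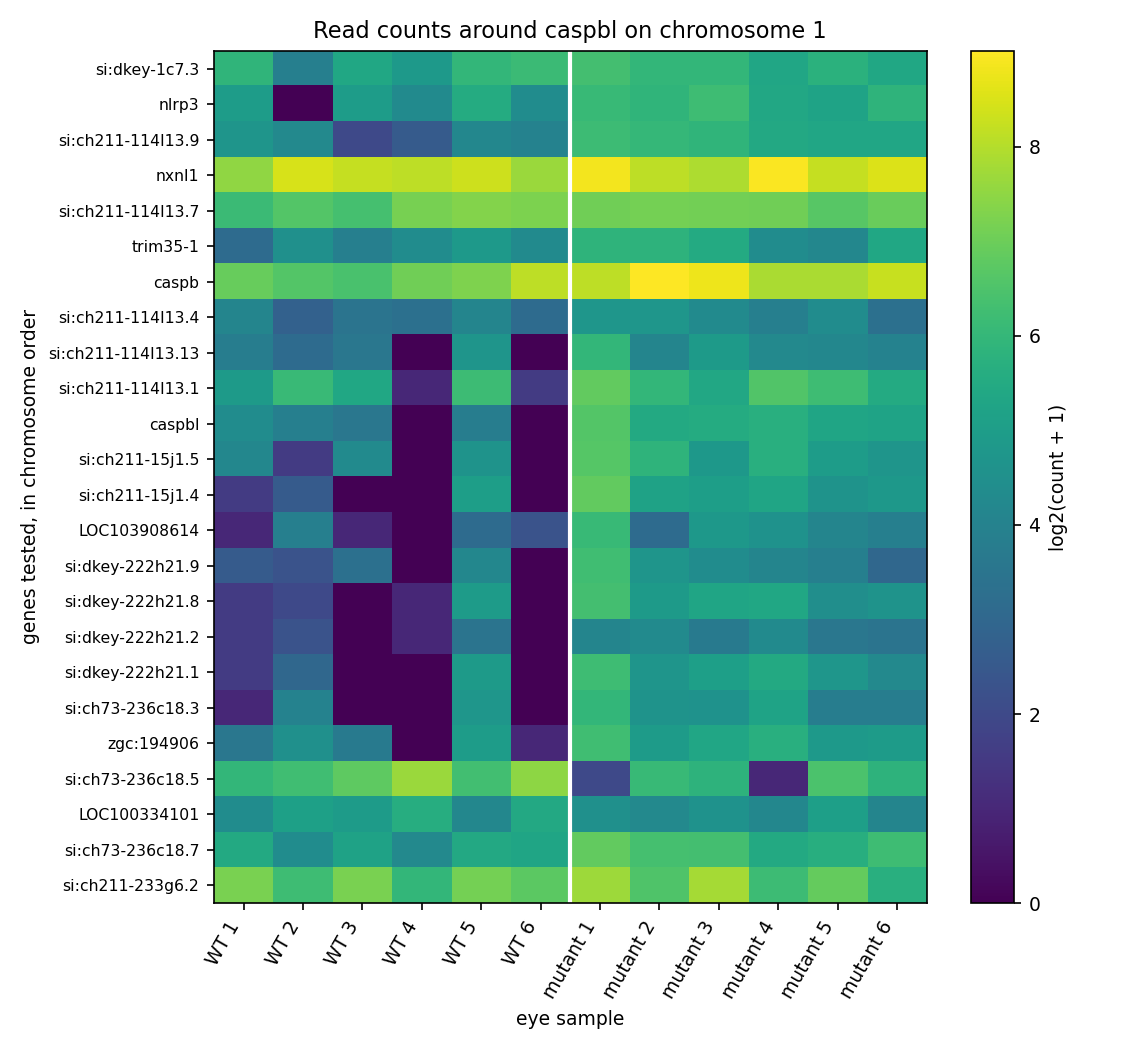
Counts, as log2(count + 1) in colour, of the 24 tested genes that start within 400000 bases of caspbl. Rows are genes in chromosome order, columns are the 12 samples, and the white line parts WT from lrpap1 mutants. Over 12 neighbouring genes, caspbl included, WT samples 4 and 6 have at most 4 counts, while caspb above them is counted in every sample.

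Because caspb and caspbl are similar in name and position, and reads from close copies can be split between genes, their counts were also added. The lowest, median and highest sums were 10.8, 15.4 and 28.2 CPM in WT and 31.0, 39.0 and 54.5 CPM in mutant eyes, so the genotypes did not overlap. The sum had a log2 change of 1.32 (SE 0.22, adjusted p = 0.00195, edgeR). The split between these genes varied. The log2 ratio of caspbl to caspb per length averaged -5.00 ± 2.95 (SD, n = 6) in WT and -2.88 ± 0.76 (SD, n = 6) in mutants, and this difference of 2.12 did not pass the test (exact permutation test, two-sided, p = 0.139). The WT mean was set by WT samples 4 and 6, whose values of -8.23 and -9.29 rest on the 0.5 counts added to a count of 0. The other 4 WT samples, from -3.72 to -2.74, lay within the mutant range of -3.76 to -1.68, the medians were -3.41 and -3.00, and without WT sample 6 the difference was 1.26 (exact permutation test, p = 0.277).

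The gasdermins, the genes of the pore itself, did not pass the test. gsdmea lies on chromosome 19 from 20037906 to 20054609 on the forward strand. It was the most sparsely counted of the 6 genes, with 2 to 17 counts in WT and 3 to 28 in mutant eyes. Its lowest, median and highest values were 0.264, 0.514 and 1.75 CPM in WT and 0.341, 1.51 and 3.03 CPM in mutants. WT samples 5 and 6 and mutant samples 1 to 4 were above 1 CPM, and the other samples of both genotypes were below it. The estimated log2 change was 0.92 (SE 0.53, 95% confidence interval -0.21 to 2.06, adjusted p = 0.283, edgeR), so an increase of up to 4.18-fold lies within the interval at these low counts. Its neighbour osbpl3a, an oxysterol-binding protein gene, was called higher (log2 fold change 1.1, SE 0.19, adjusted p = 0.0025, edgeR).

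gsdmeb lies on chromosome 16 from 21423251 to 21442287 on the forward strand. Its coefficient of variation among WT fish, 97.4%, was the highest of the 6 genes. That of caspbl, with 2 WT samples at 0, was 88.9%. The lowest, median and highest values of gsdmeb were 0.793, 5.08 and 17.5 CPM in WT, a 22.1-fold range, and 1.25, 2.80 and 7.27 CPM in mutant eyes. WT samples 2 and 5 were the highest of all 12, while WT samples 1 and 4 were below every mutant. Its log2 difference was estimated at -1.09 (SE 0.66, 95% confidence interval -2.52 to 0.33, adjusted p = 0.309, edgeR), and limma put it at -0.47 (adjusted p = 0.715). gsdmeb was the only one of the 6 genes with a lower estimate in mutants. The log2 ratio of gsdmea to gsdmeb per length averaged -1.65 ± 1.44 (SD, n = 6) in WT and -0.27 ± 1.34 (SD, n = 6) in mutants, a difference of 1.39 that did not pass the test (exact permutation test, two-sided, p = 0.11, adjusted p = 0.139 over 3 ratios). Without WT sample 2 this difference was 0.88. Its neighbours osbpl3b and mpp6a did not pass the test either.

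**Figure D3:**
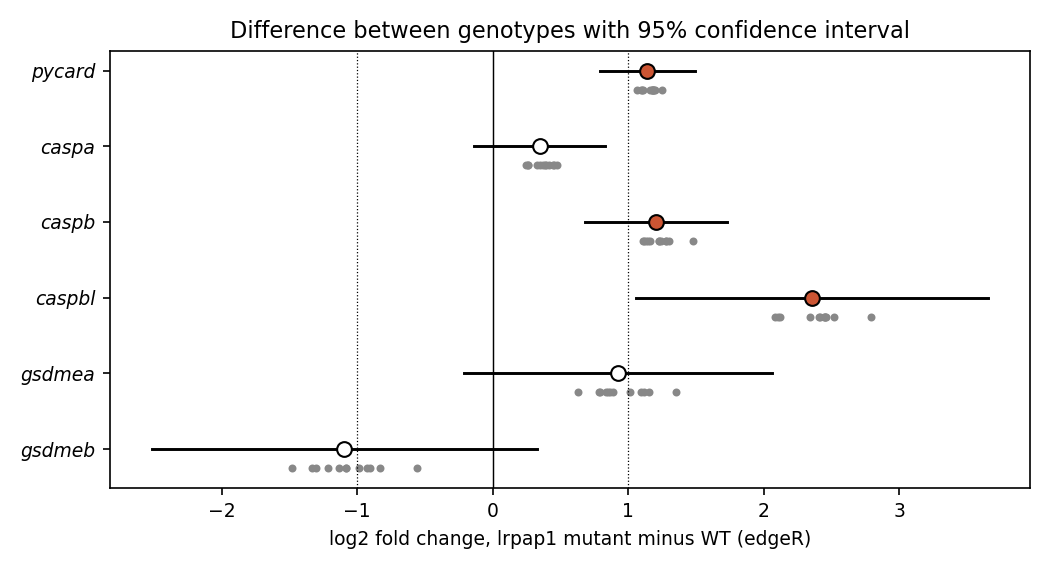
Log2 fold change of each gene, lrpap1 mutant minus WT, from edgeR with its 95% confidence interval. Filled circles are called genes, open circles are not, small grey points below are the estimates when each one of the 12 samples is dropped, and dotted lines mark a log2 fold change of -1 and 1. The intervals of pycard, caspb and caspbl lie above 0, and those of caspa, gsdmea and gsdmeb include it.

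To compare the genes with each other, TPM was used, in which counts are taken per gene length. caspb had the highest TPM of the 6 in 11 of the 12 samples, with medians of 14.4 in WT and 34.1 in mutant eyes. pycard followed with 12.6 and 26.8 TPM. The ranges of these genes overlapped in each genotype, and in WT sample 3 pycard was above caspb. caspa came next with medians of 7.67 in WT and 9.26 TPM in mutants, and it was below pycard in all 12 samples but below gsdmeb only in WT sample 2. The order of the other genes differed between the genotypes. In WT eyes gsdmeb had a median of 2.50 TPM, caspbl of 1.19 and gsdmea of 0.452, with overlapping ranges, and gsdmeb was above caspbl in 5 of 6 samples. In mutants caspbl was at 4.45 TPM and above both gasdermins in 6 of 6 samples. gsdmea and gsdmeb had mutant medians of 1.43 TPM each, and each was the higher in 3 of 6 mutants. gsdmea was the higher in mutant samples 1 to 3 and gsdmeb in mutant samples 4 to 6. These sets also differed in their counts over all genes. The chi-square per degree of freedom between samples was 7.02 to 10.8 within the sets and 11.0 to 21.1 across them. What sets them apart was not tested. caspa made up a median of 27.5% of the summed TPM of the 3 caspases in WT and 19.7% in mutants, caspb 66.5% and 71.1%, and caspbl 5.21% and 9.07%. The share of caspa was 22.7% to 45.7% in WT and 12.7% to 22.0% in mutants, without overlap. The ranges overlapped for caspb (48.8% to 77.3% and 60.2% to 80.9%) and for caspbl (0% to 8.47% and 5.9% to 18.7%).

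**Figure D4:**
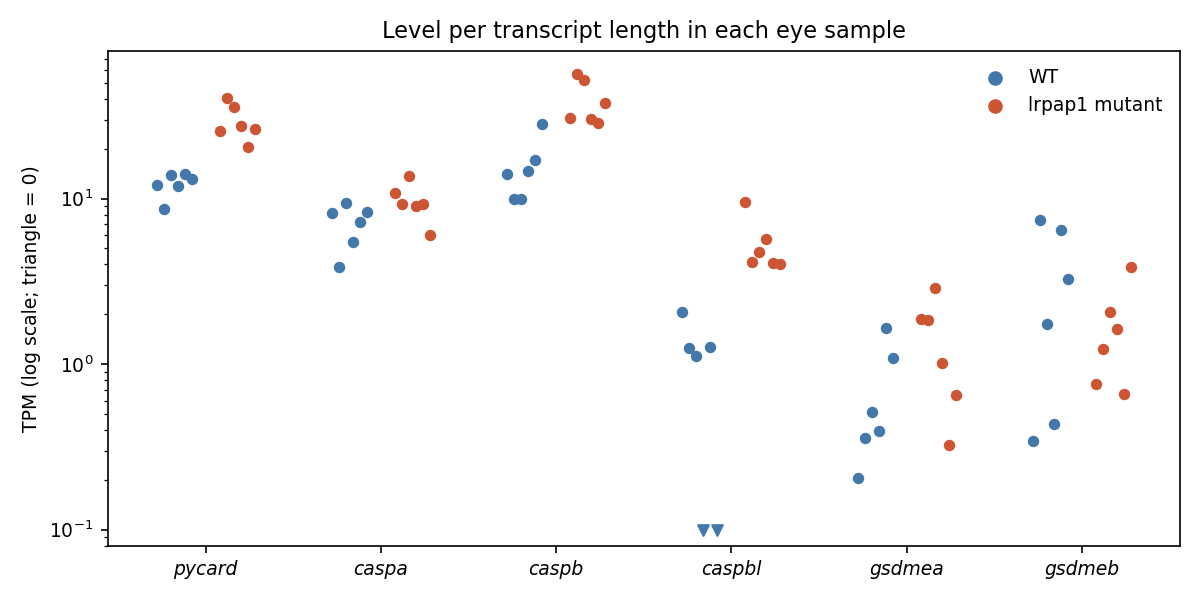
TPM, the level per gene length, of each gene in each WT and lrpap1 mutant sample, on a log scale. Points are samples, and triangles at the foot mark the 2 WT samples with 0 TPM of caspbl. In 11 of 12 samples caspb, pycard and caspa are the highest, with gsdmeb above caspa in WT sample 2, and in mutants caspbl is above both gasdermins in 6 of 6 samples.

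Within a genotype, pairs of the 6 genes differed in how far they varied together from fish to fish. As a description over the 12 samples, the deviations of log2(CPM + 1) from the genotype means correlated at a Pearson r of 0.649 between pycard and gsdmea, 0.624 between pycard and caspb, 0.562 between caspb and gsdmea, and 0.491 between pycard and caspa. The r was -0.448 between caspb and caspbl and 0.328 between the gasdermins. caspbl was at -0.009 with pycard, 0.005 with gsdmea, 0.012 with gsdmeb and 0.267 with caspa. gsdmeb was at -0.023 with pycard, -0.373 with caspa and 0.115 with caspb. caspa was at 0.244 with caspb and 0.415 with gsdmea. These values share 12 libraries and their depth. They also keep any difference between mutant samples 1 to 3 and mutant samples 4 to 6. gsdmea was at 1.85 to 3.03 CPM in the first set and 0.341 to 1.16 CPM in the second. The sets overlapped for pycard and caspb. The part of this split in the correlations was not tested. Among the 18984 genes, the pattern most like that of pycard was that of cd44b, a hyaluronan receptor gene (r = 0.954), followed by pggt1b (0.902) and the cingulin-like LOC101884022 (0.894). For caspa they were myo1eb (0.919), irf3 (0.914), an interferon regulatory factor, and znf1059 (0.914), and for caspb foxq2 (0.943), ppp1r16a (0.909) and ryr3 (0.903). For caspbl they were clptm1l (0.921), riox1 (0.894) and prpf6 (0.884). For gsdmea they were flvcr2b (0.955), lcat (0.935) and atp13a2 (0.933), and for gsdmeb tbc1d2b (0.919), tmod4 (0.905) and rab5b (0.895). Each of these is the extreme of many correlations over few samples.

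The other genes of the pathway were read from lists. Beside the counts of calls in these lists, 3.68% of all genes tested were called higher and 0.874% lower. Upstream, the sensor list held 7 NLR family genes in a broad sense, nlrp1, nlrp3, nod1, nod2, nlrx1, nlrc5 and nlrc3l. It was not limited to genes known to form inflammasomes. All 7 were tested and 1 was called higher, with a median log2 fold change of 0.72, the value of nod1. The called sensor was nlrp1, listed as si:ch211-66k16.28, an NLR protein that joins Pycard and caspases in zebrafish. It had 9 to 24 counts in WT and 27 to 100 in mutant eyes, and its log2 fold change was 1.48 (SE 0.38, adjusted p = 0.0234, edgeR), though it was not called with limma (1.15, adjusted p = 0.1). nlrp3, listed as si:ch211-114l13.10 near caspb, was at 1.17 and did not pass (SE 0.47, adjusted p = 0.125, edgeR), with 0 counts in WT sample 2 and 37 to 74 in mutants. Of 8 genes that supply triggers, among them the ATP-gated channel p2rx7, the kinase nek7 and the pannexins, 0 were called by edgeR, with a median of -0.09. At an unadjusted p under 0.05, 2 of these 8 were higher and 3 lower. The share of all genes at that p is not given here, so such counts have no background. DESeq2 and limma each called 1, the damage-sensing channel gene trpm2 (1.17 and adjusted p = 0.0641 with edgeR, 1.18 and adjusted p = 0.0239 with DESeq2, named after its values were seen). Among 10 tested priming factors 2 were called higher, irf1b (1.48, adjusted p = 0.00348, edgeR), an interferon-induced transcription factor, and ikbkb (1.04, adjusted p = 0.0144, edgeR), a kinase that releases NF-κB.

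Downstream, il1b, the cytokine that inflammasome caspases mature, was too sparse for the filter, with 0 to 9 counts in WT and 8 to 29 in mutant eyes. With no filter on low counts its log2 fold change was 1.6 and did not pass in edgeR (SE 0.54, adjusted p = 0.0798), while DESeq2 called it at 1.62 (adjusted p = 0.024). il18, il18r1 and il1r1 were not analysed here. Among 9 tested apoptotic caspases 4 were called higher, with a median of 0.79. casp3b, one of the zebrafish copies of caspase-3, rose from 13 to 29 counts in WT to 39 to 101 in mutants (a log2 change of 1.51, SE 0.27, adjusted p = 0.00356, edgeR). casp6l1 (1.63), casp8l2 (1.74) and casp6 (1.11) were the other called caspases, and casp3a, the other caspase-3 copy, was at 0.54 (adjusted p = 0.0373, edgeR), below the fold set for a call. ninj1, which ruptures the membrane after gasdermin pores have formed, was at -0.21 (adjusted p = 0.702, edgeR). Of the 6 tested rupture and related pore genes 1 was called, mpeg1.3, a perforin-like gene of the mpeg1 family, at 4.54 (SE 0.52, adjusted p = 0.00015, edgeR). The related mpeg1.1 (0.83, adjusted p = 0.0419, edgeR), also listed as a macrophage marker, and mpeg1.2 (0.93, adjusted p = 0.101, edgeR) were not called. Of 7 genes of the ESCRT machinery, which repairs gasdermin pores, 1 was called, chmp4c at 1.17 (adjusted p = 0.0194, edgeR).

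Genes of 2 neighbouring responses were also read. In the necroptosis list 3 of 8 were called higher, the death receptor fas (1.99), the kinase ripk3 (1.07) and cyldl (1.1). In the interferon list 8 of 10 were called higher with a median of 1.72, from irf3 (1.17) to mxb (6.00), an antiviral GTPase gene, and with stat1b (2.96), stat2 (1.24), irf7 (2.37), mxa (2.21), isg15 (3.98) and rsad2 (1.22) between them. Over all pathway lists, these 2 included, 20 of the 66 tested genes (30.3%) were called higher and 0 lower by edgeR, with a median of 0.60. Of all genes tested, 3.68% were called higher and 0.874% lower. The interferon list gave 8 of the 20 calls and the necroptosis list 3, so the total does not describe the inflammasome genes alone. The calls were 22 higher and 0 lower with DESeq2 and 19 higher and 0 lower with limma. At an unadjusted p under 0.05 in edgeR 41 were higher and 4 lower, counts without their share over all genes here.

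Markers of cells that an eyeball can hold were read in the same samples. Of all genes tested, 3.68% were called higher and 0.874% lower, and 47.4% had a positive estimate. Of 7 tested leukocyte markers 5 were called higher, namely ptprc, lcp1, coro1a, laptm5 and fcer1g, with a median log2 fold change of 1.17. Summed levels here include listed markers that missed the filter. The sum of the 8 leukocyte markers was 421 to 922.5 CPM in WT and 622.2 to 1349 CPM in mutants, largely from cd74a and cd74b. Of 9 tested macrophage and microglia markers 2 were called higher, csf1ra and marco, and limma called 3. The sum of the 10 listed, most of it from apoeb, was 938.8 to 1319 CPM in WT and 978.9 to 1319 CPM in mutants. Of 4 tested neutrophil markers 1 was called, csf3r. The 7 neutrophil markers found in the data summed to 7.06 to 13.2 CPM in WT and 11.0 to 40.8 CPM in mutants. They include mpx, which missed the filter, with 3 to 10 counts in WT and 6 to 152 in mutants. Of 4 tested lymphocyte markers 2 were called, zap70 and cd4-1. The 9 lymphocyte markers, untested ones included, summed to 7.06 to 20.5 CPM in WT and 15.3 to 31.1 CPM in mutants. DESeq2, run without the filter on low counts, called 2 neutrophil and 4 lymphocyte markers, and limma called 1 and 2. Of 13 surface epithelium markers 6 were called higher, namely krt4, krt17, epcam, agr2, evpla and ppl, and 10 had a positive estimate. The keratin genes krt5 (-0.10), krt91 (-0.43) and krt93 (-2.67) had negative estimates and were not called. The summed level of the 13 markers, most of it from krt5 and krt91, was 10430 to 18150 CPM in WT and 11170 to 21050 CPM in mutants. No marker in these lists was at 0 counts in every WT sample. Among 12 tested eye markers the cone opsin gene opn1mw1 was called lower (-4.56), and 2 had a positive estimate. At an unadjusted p under 0.05, 4 were lower and 0 higher, again without the share over all genes. The bipolar cell gene vsx1, named after its values were seen, was at -0.74 without overlap of the genotypes (adjusted p = 0.00872, edgeR). Of 9 lens markers 0 were called by edgeR, DESeq2 or limma, and 0 had an unadjusted p under 0.05. Of these 9 estimates 0 were positive, and their median was -0.28. The summed level of the lens list was 86.8 to 17340 CPM in WT and 7698 to 9133 CPM in mutants. WT sample 3, with few crystallin counts, widened the spread in WT, so these tests could miss a difference of this size. The part of leukocytes and surface epithelium in the differences of pycard, caspb and caspbl was not tested.

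**Figure D5:**
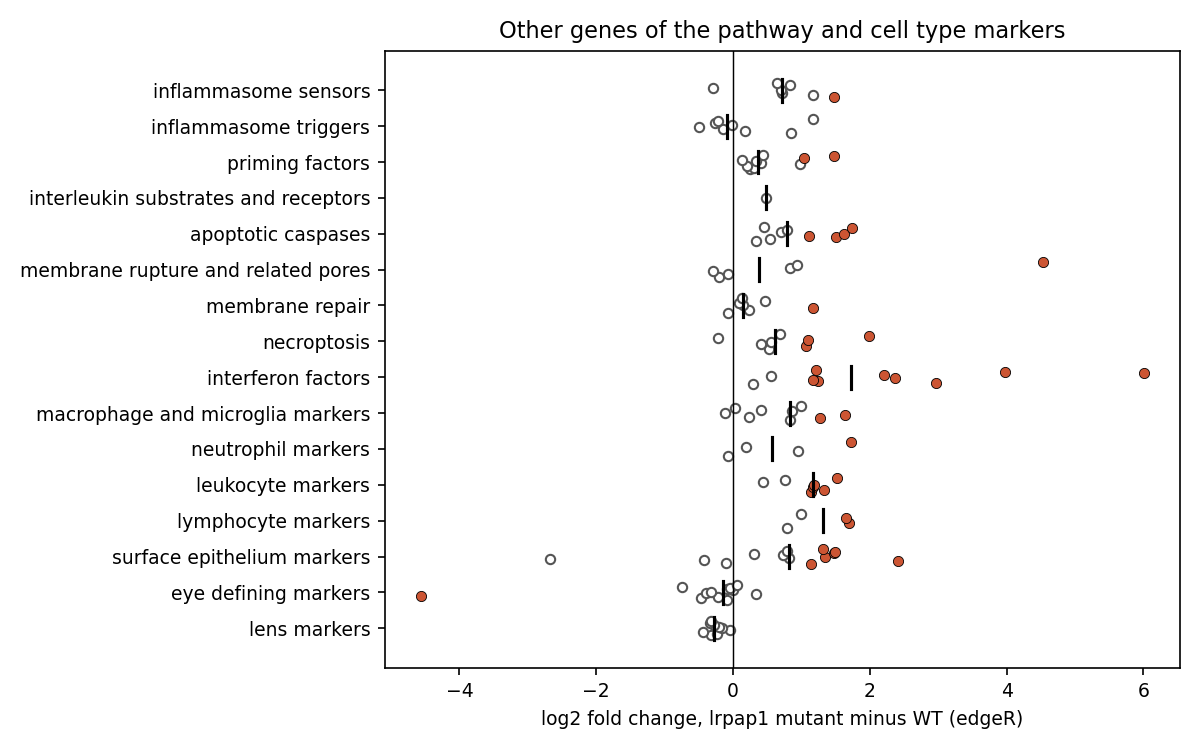
Log2 fold change, lrpap1 mutant minus WT, of the tested genes of each pathway list and cell type marker list. Filled points are called genes, open points are not, and black lines are list medians. The interferon list has the highest median at 1.72, and leukocyte and surface epithelium markers hold 5 and 6 called genes.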

How the data were processed

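The authors aligned reads to GRCz11 with HISAT2 2.1.0 and deposited unnormalized counts for each gene and sample. They also deposited TPM values, which recomputation showed to be counts per gene length scaled to 1000000 in each sample. The read counter, its use of strand and the annotation version are not given in the sources used here. Sample columns were matched to genotypes by their labels. The members and lists were chosen with earlier results of these data known. Names of gsdmea, gsdmeb and some listed genes were matched through NCBI gene numbers in a RefSeq table of another assembly, used for names only.

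The test was edgeR 4.0.16 under R 4.3.3 (TMM scaling, filterByExpr, glmQLFit and glmQLFTest, genotype only), and p values were adjusted by Benjamini-Hochberg over 18984 genes. Standard errors were derived from the F statistic. Alternatives were DESeq2 1.42.0, limma 3.58.1 (voom with sample quality weights), other scalings and filters, the replicate number as a block, and refits that dropped each one of the 12 samples. The 3 ratios, adding caspb and caspbl counts, adding 1 count to ratios in place of 0.5, leaving samples out of the ratios, and the window around caspbl were chosen after seeing the data. The genes named are lrpap1, the 6 members, the called genes of each list with il1b, il18, nlrp1, nlrp3, casp3a and casp3b, the 3 nearest patterns of each member, and genes next to a member. Other genes near caspbl were named after their values were seen. So were the pathway list genes p2rx7, nek7, ninj1, nod1, nod2, nlrx1, nlrc5, nlrc3l, mpeg1.1 and mpeg1.2. The same holds for the marker genes cd74a, cd74b, apoeb, mpx, krt5, krt91, krt93, rho, gnat1 and rpe65a. The tests were checked on simulated counts. Total counts of 7988538 to 9829112 leave genes of few counts with large counting errors.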

Additional observations from a re-analysis of the deposited data

Results flagged for a closer look

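In each of 12 groups (6 genes in 2 genotypes) the sample farthest from the others was compared with Dixon's critical value at the 95% level, which chance passes in about 1 of 20 groups, or 0.6 of 12. It was passed in 2 groups. caspb in WT sample 6 was at 28.2 CPM, where the other WT samples were between 9.60 and 15.9 CPM. caspbl in mutant sample 1 was at 10.3 CPM, where the other mutants were between 4.19 and 6.46 CPM, and it is this sample without which caspbl was no longer called.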

How the results depend on the processing

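The count of all genes called was 864, and it was 1525 with DESeq2, 464 when every sample had to have at least 10 counts, and 686 to 1160 when one sample was left out. That stricter filter tests fewer genes, and it left caspbl, gsdmea and gsdmeb without a value. The cause of the difference with DESeq2 was not tested. No result changed direction. With a sample left out, the log2 fold change was 1.06 to 1.25 for pycard, 0.25 to 0.47 for caspa, 1.11 to 1.48 for caspb, 2.08 to 2.79 for caspbl, 0.63 to 1.35 for gsdmea and -1.48 to -0.56 for gsdmeb. pycard and caspb were called under every alternative, with adjusted p from 5.92e-08 (DESeq2) to 0.0191 with a sample left out, and up to 0.0342 in the block below. Between 2 and 3 of the 6 genes were called with a sample left out. The number of called pathway genes was 18 to 23 and that of called marker genes 14 to 23 with a sample left out, from 20 and 17. For the 20 called pathway genes, 17 of 393 values lost the call, most of them of ikbkb and irf3 (6 each). With a sample left out, the log2 ratio of gsdmea to gsdmeb differed by 0.88 (without WT sample 2, p = 0.221) to 1.83 (without mutant sample 6, p = 0.026), by exact permutation tests with p not adjusted over the 3 ratios, and the other p were 0.0649 to 0.216.

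With the replicate number as a replicate block, caspbl was at 2.58 and no longer called (adjusted p = 0.0579, edgeR), and 640 of all genes and 2 of the 6 were called. The numbers did not pair the samples: same-numbered samples correlated at -0.302 to 0.109 in their deviations. Only for WT sample 1 was the same-numbered mutant the best match among the mutants.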
